A study of Mus musculus with 6 samples.

Results

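The 33 genes described here encode the enzymes that make, convert and recycle purine, pyrimidine and deoxyribonucleotides. They were taken by symbol from a list of pathway members, and all 33 were found among the 23850 gene entries of each library. The list holds 12 genes of de novo purine synthesis, counting the enzymes that make its sugar phosphate, 5 of de novo pyrimidine synthesis, 10 of deoxynucleotide supply and 6 of salvage. The deoxynucleotide group counts Dctpp1 and Samhd1, whose enzymes break deoxynucleotides down, so its counts do not give a direction of supply. All 33 passed the limit of a mean of 1 FPKM over the 6 libraries.

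Messenger RNA was measured in germinal centre B cells made in culture, starting from naive follicular B cells (wild type mice, strain C57BL/6J). Both groups were grown for 4 days on feeder cells expressing CD40L with IL-4 at 1 ng/ml, then for 36 h on such feeders with IL-21 at 10 ng/ml. Over those 36 h, 3 cultures received CHIR99021, an inhibitor of the kinases GSK3A and GSK3B, at 3 uM, and 3 received DMSO, its solvent, for which the labels print the same figure. The design compares the expression profiles of the 2 groups. The cells are a culture model, and the sources used here do not say how they were separated from the feeders.

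Purines are built de novo on phosphoribosyl pyrophosphate (PRPP) until inosine monophosphate (IMP) is reached, which is then turned into AMP or GMP. Pyrimidines are built as a free ring that is joined to PRPP afterwards and becomes UMP and CTP. Ribonucleotide reductase converts ribonucleoside diphosphates into the deoxy forms needed for DNA, and salvage enzymes return free bases and nucleosides to the nucleotide pool. Dividing lymphocytes such as germinal centre B cells are known for a high demand on all of these routes.

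Among the promoters of these genes, the E-box CACGTG, the letters bound by MYC and related factors, was found for 6 genes. The sites are shown because they lie before RefSeq starts of genes that rose (Atic, Impdh2, Nme1) and of genes that did not (Dtymk, Paics, Tyms). Each line gives the site in capitals with up to 10 bases on either side, 5′ to 3′ on the strand of the gene, from RefSeq on GRCm38.p6.
Atic, chr1:71557139-71557155, plus strand: acctcggggtCACGTGg
Impdh2, chr9:108560316-108560341, plus strand: gctcgataagCACGTGgttacccagc
Nme1, chr11:93968275-93968300, minus strand: tgcggggaacCACGTGaggccgggga
Nme1 (second start), chr11:93968039-93968064, minus strand: cttgatacgcCACGTGggctcgcctt
Dtymk, chr1:93802067-93802092, minus strand: ctcgaacttcCACGTGaccagagcct
Paics, chr5:76951089-76951114, plus strand: cctcggaaagCACGTGgagggacctg
Tyms, chr5:30073671-30073696, minus strand: ccacttctgtCACGTGggggcggggt

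The E-box begins 7 bases before the start of Atic, 110 before Impdh2, 18 and 29 before the 2 starts of Nme1, 148 before Dtymk, 203 before Paics and 61 before Tyms. Both Nme1 sites lie inside the deposited span of Nme1, and the Paics site lies inside that of Ppat, a gene that rose. The printed stretches of Atic, Impdh2 and Paics, and that 18 bases before a start of Nme1, overlap an annotated exon. Windows of 300 bases, from 250 before to 50 after each start, were given for 30 of the 33 genes, and 7 of their 36 windows (19.4%) held the motif. The same letters were in 7.15% of all 32851 windows and in 10.5% of the 9676 windows of tested genes. By call, the motif was in 4 of 14 windows of genes that rose and in 3 of 22 windows of the others. Nme1 gave 2 overlapping windows with a match. Counted by gene, the motif was found for 3 of 12 that rose and 3 of 18 others. Sites of the E2F type (TTTCCCGC, TTTCGCGC, TTTGCCGC or TTTGGCGC, either strand) were in 2 of the 36 windows (5.56%), those of Ppat and Prps2, against 2.26% of all windows and 4.21% of those of tested genes. Neither motif contains the other. The matches describe these letters, and binding was not measured.

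With CHIR99021, 12 of the 33 genes rose and 2 fell. Across all 10096 tested genes 8.13% rose and 13.3% fell, 21.4% in either direction. The genes that rose were Prps1, Ppat, Gart, Atic, Impdh1, Impdh2 and Gmps of purine synthesis, Umps of pyrimidine synthesis, Nme1 and Dctpp1 of deoxynucleotide supply, and Aprt and Dck of salvage. Those that fell were Samhd1, a deoxynucleotide hydrolase, and Tk2, the mitochondrial thymidine kinase. The median log2 change of the 33 genes was 0.33, against -0.04 over all tested genes. Levels are FPKM, fragments scaled to transcript length and to the depth of the library, with the SD over 3 libraries. Changes are differences in log2(FPKM + 1), CHIR99021 minus DMSO, and a gene is said to rise or fall where limma's test gave a Benjamini-Hochberg adjusted p under 0.05 over all tested genes. Fewer cells of a kind and less RNA in each cell cannot be told apart in such bulk samples.

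Libraries with the same replicate number deviated together, so a fit with the replicate number as a block was set beside the first. With the block, 24 of the 33 genes were called higher and 4 lower, against 18.4% and 24.4% of all tested genes (42.8% in either direction), and all 14 earlier calls were among them. After quantile scaling, which moved the share of higher calls among all genes, 21 were called higher and 2 lower, against 12.2% and 11.6% (23.8% in either direction). After upper-quartile scaling the counts were 17 and 2, against 11.0% and 11.6% (22.7%). Single libraries weighed on the count of genes that rose, which was 5 without DMSO replicate 1, 3 without CHIR99021 replicate 2 and 3 without CHIR99021 replicate 3. Shares over all tested genes were not counted for fits with a library left out. Such drops, here and below, cannot be read as particular to the genes named. Impdh1, Impdh2, Dck, Samhd1 and Tk2 were called in each of the 6 fits that left out a library, with adjusted p no higher than 0.0438, 0.0256, 0.0441, 0.0115 and 0.0474. The groups did not overlap for 22 genes that were higher and 4 that were lower, where 17.0% and 23.1% of all tested genes, 40.1% together, did the same. Within replicate numbers, 25 of the 33 genes were higher with CHIR99021 in 3 of 3 and 6 were lower in 3 of 3, as were 29.3% and 37.3% of all tested genes.

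Markers of cell types moved with the groups and the replicate numbers. All 12 B cell markers were above 0, with a summed level of 3449 to 4600 FPKM in DMSO and 1656 to 1924 in CHIR99021, and 10 of 11 tested fell. Plasma cell markers rose for 4 of 7 tested genes, with sums of 503 to 786 and 514 to 640 FPKM. With the block 5 were called higher and 1, Igj, lower. Igj was the largest single part of the sum in every library, at 452 ± 135 FPKM in DMSO and 289 ± 57.5 in CHIR99021 (SD, n = 3). Sdc1 was called in neither fit. Cd28, 1 of the 4 that rose, reached the limit on level only through CHIR99021 (means 0.256 and 9.53 FPKM). T cell markers summed to 13.9 to 17.6 FPKM in DMSO and 16.8 to 20.2 in CHIR99021, with Cd3e and Cd8b1 at 0 in every library. Of the 12 markers listed 9 were found. Lck was the largest single part of the sum in every library, at 14.4 ± 0.988 FPKM in DMSO and 12.2 ± 1.36 in CHIR99021. Of 2 tested genes 1 was higher, Zap70, which reached the limit on level only through CHIR99021 (means 0.793 and 5.35 FPKM). Myeloid markers summed to 26.5 to 34.1 and 13.8 to 20.9 FPKM, with Cd14 and Fcgr1 at 0 and 2 of 3 tested genes lower (Cd68 and Itgam). Cd68 was the largest single part of that sum in every library, at 22.3 ± 3.57 FPKM in DMSO and 11.5 ± 5.11 in CHIR99021. Fibroblast markers, which feeder cells could bring, summed to 442 to 942 FPKM in DMSO and 173 to 504 in CHIR99021. Of 8 tested genes 2 were lower (Vim and Thy1), or 5 with the block, which added Col1a2, Col3a1 and Fn1. Vim was the largest single part of the sum in every library, at 581, 313 and 455 FPKM in DMSO and 226, 113 and 108 in CHIR99021. Col1a1 and Sparc were called in neither fit.

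Collagen followed the replicate number: Col1a1 had 202, 69.2 and 36.2 FPKM in DMSO replicates 1, 2 and 3 and 165, 65.3 and 33.3 in CHIR99021. Of the 33 nucleotide genes, replicate 1 was the lowest of its group for 18 in DMSO and 22 in CHIR99021. It was the highest for 7 in DMSO and 7 in CHIR99021. The same was not counted over all tested genes, so these counts cannot be read as particular to the nucleotide genes. The part of the cell type markers in the changes of the nucleotide genes was not tested.

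**Figure D1:**
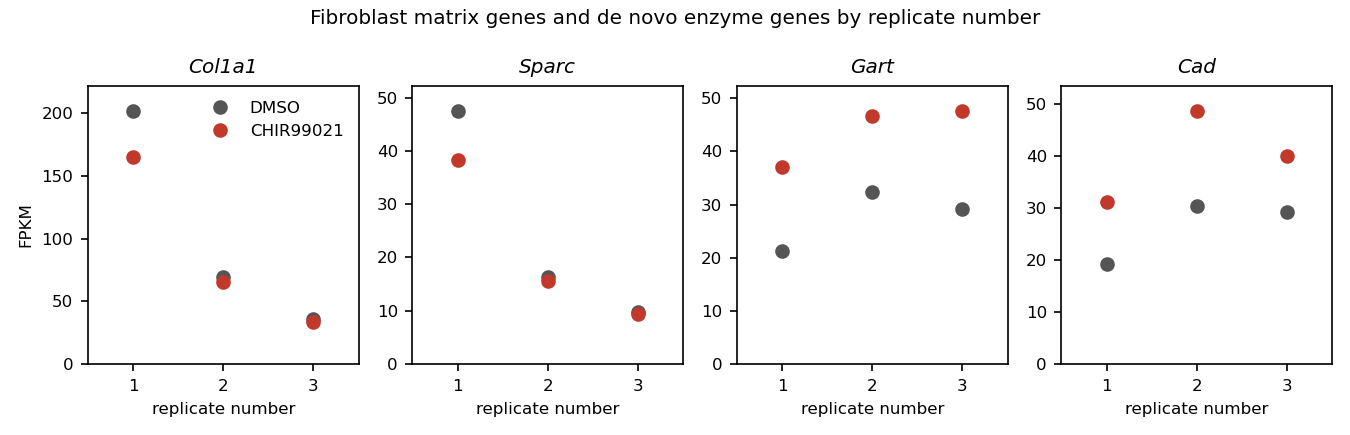
FPKM by replicate number for the fibroblast matrix genes Col1a1 and Sparc and the enzyme genes Gart and Cad, with DMSO in grey and CHIR99021 in red. Col1a1 and Sparc are highest in replicate 1 of both groups, where Gart and Cad are lowest. The red points of Gart and Cad lie above the grey point of the same number in 3 of 3. Gart and Cad do not stand for all the nucleotide genes. Replicate 1 was the lowest of its group for 18 of the nucleotide genes in DMSO and 22 in CHIR99021. It was the highest for 7 in DMSO and 7 in CHIR99021, with Nme2 among them in both groups.

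**Figure D2:**
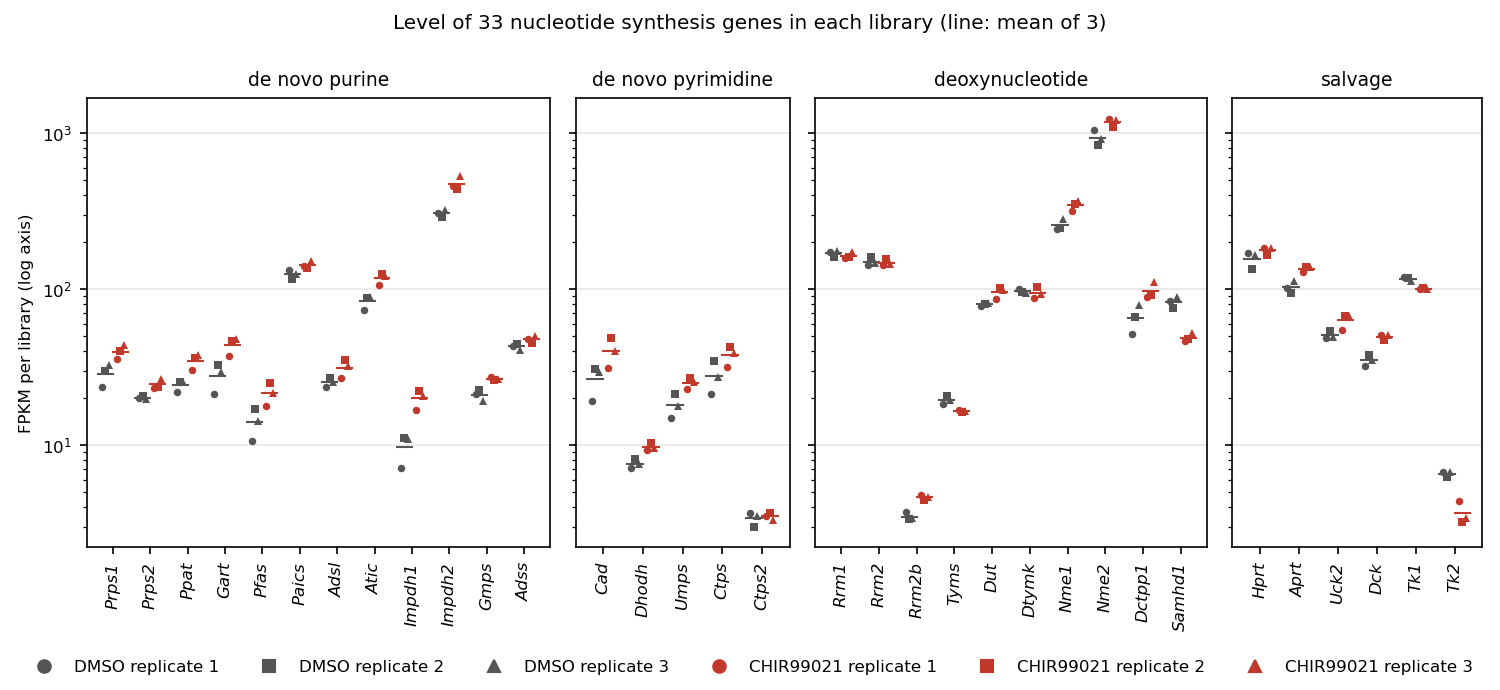
FPKM of each of the 33 genes in each library (log axis), by pathway step, with DMSO in grey, CHIR99021 in red, a marker shape for each replicate number and a line at the mean of 3. Nme2 has the highest DMSO mean, at 931 FPKM, and Ctps2 the lowest, at 3.38, and the red points of Impdh1 lie above and those of Samhd1 and Tk2 below all grey points of the same gene.

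PRPP itself is made by the synthetases Prps1 and Prps2, both on chromosome X (Prps1 at 140456603 to 140476140, Prps2 at 167346333 to 167382699, mm10). Prps1 had 23.4, 29.6 and 32.4 FPKM in DMSO replicates 1, 2 and 3 and 35.4, 40.0 and 43.6 in CHIR99021. The groups did not overlap, and Prps1 rose by a log2 change of 0.47 ± 0.14 (SE, adjusted p = 0.0446). That call was lost without DMSO replicate 1 (adjusted p = 0.0941) or 2 (0.0650) and without CHIR99021 replicate 2 (0.106) or 3 (0.159). Prps2 had 20.1, 20.5 and 19.6 FPKM in DMSO and 23.3, 23.6 and 26.3 in CHIR99021. Its groups were also apart, with an adjusted p of 0.0649, or 0.0254 with the replicate block.

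Of the 6 genes for the enzymes that lead from PRPP to IMP, 3 rose (Ppat, Gart and Atic), 0 fell, and all 6 were called higher with the block. The shares of all tested genes were 8.13% higher and 13.3% lower, or 18.4% and 24.4% with the block. Ppat (chromosome 5, 76913249 to 76951578) encodes the amidotransferase of the committed step. It had 21.9, 25.2 and 25.4 FPKM in DMSO and 30.1, 36.2 and 37.6 in CHIR99021, with no overlap. The log2 change was 0.50 ± 0.11 (SE, adjusted p = 0.0184). Without DMSO replicate 1 or CHIR99021 replicate 2 or 3 Ppat was not called (adjusted p = 0.0523, 0.0611 and 0.0811).

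Gart (chromosome 16, 91621397 to 91646972) encodes a protein with 3 enzyme activities of the route, including a formyl transfer that needs folate. It had 21.3, 32.4 and 29.2 FPKM in DMSO and 37.0, 46.7 and 47.5 in CHIR99021, 1.58-fold higher on the means. Its call (log2 change 0.66 ± 0.17 SE, adjusted p = 0.0289) was lost without DMSO replicate 1 or 3 (0.0505 and 0.0644) or CHIR99021 replicate 2 or 3 (0.0836 and 0.111). Atic (chromosome 1, 71557156 to 71579403), the bifunctional enzyme that closes the purine ring, had 73.1, 88.1 and 89.1 FPKM in DMSO and 106, 124 and 121 in CHIR99021. Every CHIR99021 library was above every DMSO library, and the log2 change was 0.49 ± 0.11 (SE, adjusted p = 0.0166). It was not called without CHIR99021 replicate 2 (adjusted p = 0.0568) or 3 (0.0742).

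The other 3 genes of this stretch were called with the block and not without it. Both scalings also called Pfas, as did a limit of 5 FPKM, and quantile scaling called Paics. Pfas, the glutamine-using FGAM synthase, had 10.6, 17.1 and 14.2 FPKM in DMSO and 17.7, 24.9 and 21.6 in CHIR99021. The lowest treated library was just above the highest control library, and the adjusted p was 0.0578, or 0.00105 with the block. Paics, whose product carries the carboxylase and SAICAR synthetase activities, had 133, 116 and 126 FPKM in DMSO and 141, 136 and 152 in CHIR99021 (adjusted p = 0.155, or 0.0364 with the block). Adsl, the lyase that acts here and again on the way to AMP, had 23.6, 26.9 and 25.4 FPKM in DMSO and 26.7, 35.2 and 32.2 in CHIR99021. Its groups overlapped (adjusted p = 0.116, or 0.0148 with the block). Paics and Ppat share 168 bases of their spans at the 5′ ends, and reads in that stretch cannot be told apart without a known strand setting.

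After IMP, the branch to GMP rose at each of its genes. Impdh1 and Impdh2 encode the 2 forms of IMP dehydrogenase, the rate-limiting step to guanine nucleotides. Impdh2 (chromosome 9, 108560501 to 108565566) had 308, 289 and 320.1 FPKM in DMSO and 454, 436 and 528 in CHIR99021, the highest level among the purine genes. The difference was far wider than the spread within either group, at a log2 change of 0.62 ± 0.10 (SE, adjusted p = 0.00518). Impdh1 (chromosome 6, 29200440 to 29212271) had 7.08, 11.1 and 10.9 FPKM in DMSO and 16.7, 22.3 and 20.7 in CHIR99021. At 2.05-fold on the means, with a log2 change of 0.98 ± 0.18 (SE, adjusted p = 0.00884), it had the largest rise of the 33 genes. Gmps, which makes GMP from XMP, had 21.2, 22.5 and 19.1 FPKM in DMSO and 27.1, 26.0 and 26.3 in CHIR99021 (log2 change 0.33 ± 0.09 SE, adjusted p = 0.0379). The Gmps call was lost without DMSO replicate 1 (0.0770) or 3 (0.119) and without CHIR99021 replicate 1 (0.103), 2 (0.0873) or 3 (0.119).

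On the branch to AMP, Adss, the adenylosuccinate synthetase, had 43.3, 44.7 and 40.8 FPKM in DMSO and 47.9, 45.4 and 49.9 in CHIR99021. It was the purine gene called in neither fit (log2 change 0.15, adjusted p = 0.225, or 0.127 with the block). Over the whole step, 7 of 12 purine genes rose (58.3%) and 0 fell, with a median log2 change of 0.48, and 11 were called higher with the block. The shares of all tested genes were 8.13% higher and 13.3% lower, or 18.4% and 24.4% with the block. The count of 7 was 3 without DMSO replicate 1, 2 without CHIR99021 replicate 2 and 2 without CHIR99021 replicate 3.

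**Figure D3:**
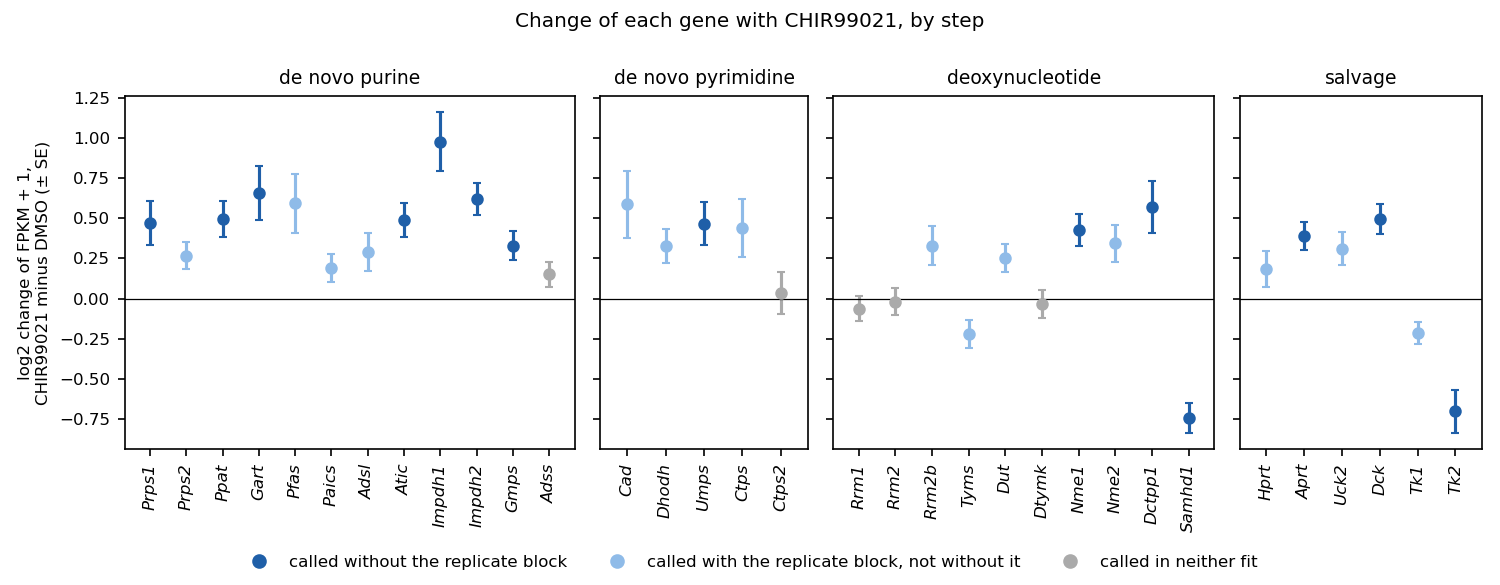
Log2 change of each gene (CHIR99021 minus DMSO, on the log2 scale of FPKM + 1; bars are the SE of the fit without a block), by step; dark blue marks genes called without the replicate block, light blue those called with it and not without it, and grey those called in neither fit. All 12 purine genes lie above 0, from 0.15 for Adss to 0.98 for Impdh1, and Samhd1 and Tk2 lie lowest, at -0.74 and -0.70.

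In pyrimidine synthesis 1 of 5 genes rose (20.0%) and 0 fell, at a median log2 change of 0.44. With the block 4 were called higher and 0 lower. Among all tested genes 8.13% rose and 13.3% fell, or 18.4% and 24.4% with the block. The pyrimidine gene that rose was Umps (chromosome 16, 33955012 to 33967003), which encodes the enzyme that forms UMP. It had 15.0, 21.3 and 17.8 FPKM in DMSO and 23.0, 27.0 and 25.3 in CHIR99021, with no overlap (log2 change 0.47 ± 0.13 SE, adjusted p = 0.0438). It was called in only 1 of the 6 fits with a library left out, with adjusted p of 0.10 and 0.111 without DMSO replicates 1 and 3, and 0.0593, 0.122 and 0.135 without CHIR99021 replicates 1, 2 and 3.

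Cad encodes the 3-activity enzyme that starts the route. It had 19.3, 30.5 and 29.2 FPKM in DMSO and 31.1, 48.6 and 40.0 in CHIR99021. The lowest treated library was just above the highest control library. The ratio within replicate numbers was 1.61, 1.595 and 1.37, and the adjusted p went from 0.0847 without the block to 0.00107 with it. Dhodh, the mitochondrial dehydrogenase of the route, had 7.07, 8.08 and 7.53 FPKM in DMSO and 9.32, 10.3 and 9.61 in CHIR99021 (adjusted p = 0.0611, or 0.0138 with the block). Of the 2 CTP synthetase genes, Ctps had 21.3, 34.5 and 27.3 FPKM in DMSO and 31.6, 42.3 and 38.8 in CHIR99021 (adjusted p = 0.121, or 0.00369 with the block). Ctps2 stayed low, at 3.67, 2.98 and 3.51 FPKM in DMSO and 3.48, 3.66 and 3.31 in CHIR99021, and was called in neither fit (adjusted p = 0.888, or 0.824 with the block). Its span lies inside that of another entry of the tables, Bc1.

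In the deoxynucleotide step 2 of 10 genes rose (20.0%) and 1 fell (10.0%), at a median log2 change of 0.12. Over all tested genes 8.13% rose and 13.3% fell. The large and small subunits of ribonucleotide reductase, Rrm1 and Rrm2, were not called in either fit. Rrm1 had 172, 161 and 176 FPKM in DMSO and 157, 159 and 172 in CHIR99021, and Rrm2 had 141, 161 and 146 in DMSO and 141, 156 and 145 in CHIR99021. In both genes the groups overlapped, and the interval of the log2 change (95%) ran from -0.25 to 0.12 for Rrm1 and from -0.22 to 0.18 for Rrm2. Rrm2b, the small subunit gene that p53 can induce, was much lower, at 3.71, 3.34 and 3.38 FPKM in DMSO and 4.76, 4.47 and 4.66 in CHIR99021. Its groups did not overlap, and its adjusted p was 0.0867, or 0.0286 with the block.

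Thymidylate is made from dUMP by Tyms, after dUTPase (Dut) has supplied the dUMP, and is phosphorylated further by Dtymk. Tyms had 18.4, 20.7 and 19.5 FPKM in DMSO and 16.8, 16.2 and 16.6 in CHIR99021. Each treated library was below each control library, by a log2 change of -0.22 ± 0.09 (SE, adjusted p = 0.108, or 0.0461 with the block). Dut had 77.6, 80.6 and 81.6 FPKM in DMSO and 86.3, 102 and 98.8 in CHIR99021 (adjusted p = 0.0770, or 0.0145 with the block), so the values of neighbouring steps lay on opposite sides. Dtymk had 99.9, 96.1 and 93.9 FPKM in DMSO and 87.0, 103 and 92.8 in CHIR99021, with overlap and an interval (95%) from -0.24 to 0.17.

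The nucleoside diphosphate kinase genes Nme1 and Nme2 were the most abundant of this step. Nme1 (chromosome 11, 93958925 to 93968521) had 242, 244 and 283 FPKM in DMSO and 316, 352 and 366 in CHIR99021, and it rose (log2 change 0.43 ± 0.10 SE, adjusted p = 0.0214). The call was lost without DMSO replicate 1 (adjusted p = 0.0659) and without CHIR99021 replicate 2 (0.0670) or 3 (0.0971). Nme2, its neighbour on the chromosome (93949815 to 93956007), had 1044, 838 and 911 FPKM in DMSO and 1233, 1091 and 1212 in CHIR99021 (adjusted p = 0.0718, or 0.00285 with the block). Their coding sequences share 81.5% of aligned bases, so reads could be split between them.

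Dctpp1 and Samhd1, whose enzymes break down deoxynucleotides, changed in opposite directions. Dctpp1 (chromosome 7, 127256959 to 127260667), a pyrophosphatase for dCTP and damaged forms of it, had 51.2, 66.2 and 79.1 FPKM in DMSO and 88.6, 90.9 and 111 in CHIR99021. It rose by 0.57 ± 0.16 (SE, log2 change, adjusted p = 0.0427) but was not called without DMSO replicate 1 (0.0834) or 2 (0.0726) or without CHIR99021 replicate 1 (0.0623), 2 (0.0772) or 3 (0.153). Samhd1 (chromosome 2, 157097529 to 157135222) encodes the hydrolase that degrades all 4 deoxynucleoside triphosphates. It had 83.3, 75.2 and 88.7 FPKM in DMSO and 46.3, 47.6 and 52.6 in CHIR99021. The groups were well apart, the fall was 1.69-fold on the means (log2 change -0.74 ± 0.09 SE, adjusted p = 0.00187), and it was the largest fall of the 33 genes on that log2 scale.

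Of 6 salvage genes 2 were higher (33.3%) and 1 lower (16.7%), at a median log2 change of 0.25. Among all tested genes 8.13% rose and 13.3% fell. With the block 4 salvage genes were higher and 2 lower, against 18.4% and 24.4% of all tested genes. Dck (chromosome 5, 88765013 to 88783277), the cytosolic kinase for deoxycytidine and purine deoxynucleosides, had 31.8, 37.9 and 34.8 FPKM in DMSO and 50.8, 47.0 and 50.6 in CHIR99021. It rose by a log2 change of 0.50 ± 0.09 (SE, adjusted p = 0.00817), with no overlap. Aprt (chromosome 8, 122574637 to 122576907), which returns adenine to AMP, had 102, 94.8 and 112 FPKM in DMSO and 129, 138 and 138 in CHIR99021. Its rise (0.39 ± 0.09 SE, adjusted p = 0.0178) was not called without CHIR99021 replicate 2 (0.0596) or 3 (0.0795). Hprt, which salvages hypoxanthine and guanine, had 170, 134 and 166 FPKM in DMSO and 184, 165 and 182 in CHIR99021, with overlap (adjusted p = 0.280, or 0.0427 with the block). Uck2, the uridine and cytidine kinase, had 48.2, 53.6 and 49.4 FPKM in DMSO and 54.6, 67.3 and 67.0 in CHIR99021 (adjusted p = 0.0712, or 0.0110 with the block).

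Both thymidine kinase genes were lower with CHIR99021. Tk2 (chromosome 8, 104226691 to 104248558), the mitochondrial form, had 6.67, 6.26 and 6.68 FPKM in DMSO and 4.35, 3.21 and 3.42 in CHIR99021. This fall was 1.79-fold on the means (log2 change -0.70 ± 0.13 SE, adjusted p = 0.00981), and the limits given with the values reached 28.7% of the FPKM, the widest among the 33 genes. Tk1, the cytosolic form made in S phase, had 120.1, 118 and 112 FPKM in DMSO and 99.5, 101 and 100.4 in CHIR99021. The groups did not overlap (log2 change -0.21 ± 0.07 SE), and Tk1 was called lower only with the block (adjusted p = 0.0695, or 0.0181). Its span shares 96 bases with that of Afmid.

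Of the steps, purine synthesis had the largest share of genes that rose, 58.3%, against 20.0% in pyrimidine synthesis, 20.0% in deoxynucleotide supply and 33.3% in salvage. The shares that fell were 0%, 0%, 10.0% and 16.7%, and over all tested genes 8.13% rose and 13.3% fell. The shares of the steps rest on 5 to 12 genes each, and the difference between steps was not tested. The order did not hold with a library left out: without DMSO replicate 1, 3 of 12 purine and 2 of 6 salvage genes were higher, and without CHIR99021 replicate 2 or 3 the counts were 2 of 12 and 1 of 6.

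The list holds 6 pairs of related genes, whose balance was compared as the log2 ratio of their FPKM within each library. With 3 libraries against 3, an exact two-sided permutation test cannot give a p under 0.1, nor under 0.25 when signs are flipped within replicate numbers. Rrm2 over Rrm2b had a log2 ratio of 5.43 ± 0.17 (SD, n = 3) in DMSO and 4.99 ± 0.12 in CHIR99021, with no overlap (exact permutation p = 0.1, adjusted over the 6 pairs 0.3). On mean FPKM that is 43.0-fold more Rrm2 in DMSO and 31.9-fold more in CHIR99021. Tk1 over Tk2 had 4.16 ± 0.08 (SD, n = 3) in DMSO and 4.79 ± 0.24 in CHIR99021, also without overlap (exact permutation p = 0.1, adjusted 0.3), or 17.8-fold and 27.4-fold. The coding sequences of these pairs share 79.1% and 72.5% of aligned bases.

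In the other 4 pairs the groups overlapped. Impdh1 over Impdh2 went from -5.01 ± 0.39 to -4.58 ± 0.25 (SD, n = 3, exact permutation p = 0.2, adjusted 0.36), higher in 3 of 3 replicate numbers. Ctps over Ctps2 had 3.01 ± 0.50 and 3.42 ± 0.21 (exact permutation p = 0.3, adjusted 0.36), and Prps1 over Prps2 had 0.49 ± 0.26 and 0.70 ± 0.08 (exact permutation p = 0.3, adjusted 0.36). Nme1 over Nme2 had -1.86 ± 0.22 and -1.78 ± 0.17 (exact permutation p = 0.6, adjusted 0.6), at a difference of 0.08.

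**Figure D4:**
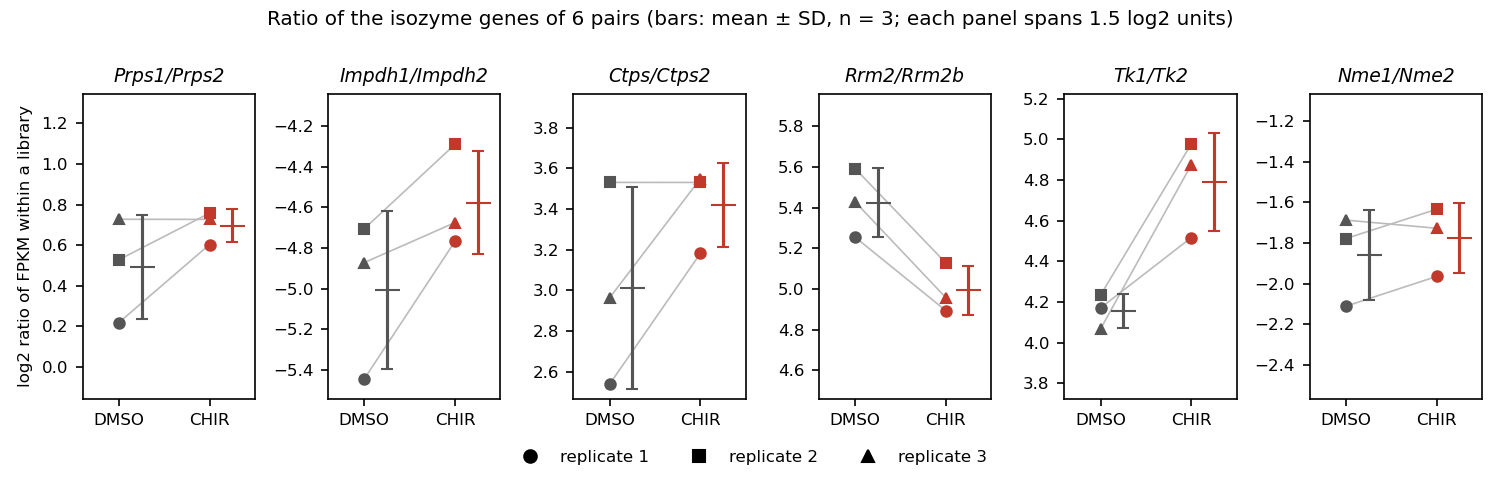
Log2 ratio of FPKM within each library for 6 pairs of related genes, DMSO in grey and CHIR99021 in red, with lines joining equal replicate numbers and bars at the mean ± SD of 3 libraries. The groups are apart for Rrm2/Rrm2b, which is lower with CHIR99021, and for Tk1/Tk2, which is higher, and overlap for the other 4 pairs.

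Genes that feed these routes were taken from lists chosen by pathway. Over all tested genes 8.13% rose and 13.3% fell, or 18.4% and 24.4% with the block. Of 15 tested genes of the folate one-carbon route, which supplies the carbons of purines and thymidylate, 8 rose (53.3%) and 0 fell (median log2 change 0.41). The folate carrier Slc19a1 had 9.61, 11.5 and 13.96 FPKM in DMSO and 20.0, 24.5 and 28.8 in CHIR99021 (adjusted p = 0.00593), and the mitochondrial hydroxymethyltransferase Shmt2 went from 96.4 ± 8.64 to 166 ± 11.8 (SD, n = 3, adjusted p = 0.00183 in limma's test). Mthfd2 and Fpgs, a mitochondrial folate enzyme and the one that adds glutamates to folate, also rose (log2 changes 0.47 and 0.73). The count of 8 was 4 without a limit on level, 4 without DMSO replicate 1, 5 without DMSO replicate 3, 2 without CHIR99021 replicate 2 and 2 without CHIR99021 replicate 3.

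Of 9 tested genes of the pentose phosphate route, the source of ribose, 2 rose (22.2%) and 0 fell: Rpia (33.9 ± 2.76 to 47.5 ± 5.40 FPKM), which forms ribose 5-phosphate, and G6pdx (19.7 ± 1.41 to 25.7 ± 1.64). Neither was called without DMSO replicate 1, CHIR99021 replicate 2 or CHIR99021 replicate 3, where the count was 0, and 1 was called without DMSO replicate 2. With the block 4 were called higher and 1 lower. Among 10 genes of glutamine and aspartate supply 1 rose (10.0%, near the 8.13% of all tested genes) and 0 fell. It was Got1, an aspartate aminotransferase, which went from 29.4 ± 4.17 to 50.3 ± 7.41 FPKM (adjusted p = 0.00848). With the block 6 of the 10 were called higher and 2 lower, and 3 were called higher under quantile scaling or without DMSO replicate 2.

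Of 41 other tested genes of nucleotide conversion, breakdown and transport, 9 rose and 5 fell (median log2 change 0.01). Adenosine kinase, Adk, had 12.1, 12.3 and 13.1 FPKM in DMSO and 24.4, 22.02 and 26.4 in CHIR99021 (log2 change 0.90 ± 0.10 SE, adjusted p = 0.00115). The nucleoside transporter Slc29a1 had 23.8, 25.6 and 24.7 FPKM in DMSO and 35.7, 36.5 and 33.7 in CHIR99021 (adjusted p = 0.00509). Guanylate kinase, Guk1, rose from 32.2 ± 0.842 to 42.1 ± 2.15 FPKM, and Nudt1, which removes oxidised purine nucleotides, fell from 26.3 ± 1.79 to 19.4 ± 0.513. These counts were 4 higher and 2 lower without DMSO replicate 1, 3 and 1 without DMSO replicate 3, 5 and 3 without CHIR99021 replicate 1, 4 and 3 without its replicate 2 and 3 and 0 without its replicate 3. They were 14 and 7 with the block, where 18.4% and 24.4% of all tested genes were called. Either scaling gave 10 and 3, where quantile scaling called 12.2% and 11.6% of all tested genes and upper-quartile scaling 11.0% and 11.6%. The counts of the list were 4 and 5 without a limit on level and 7 and 3 without the variance trend.

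**Figure D5:**
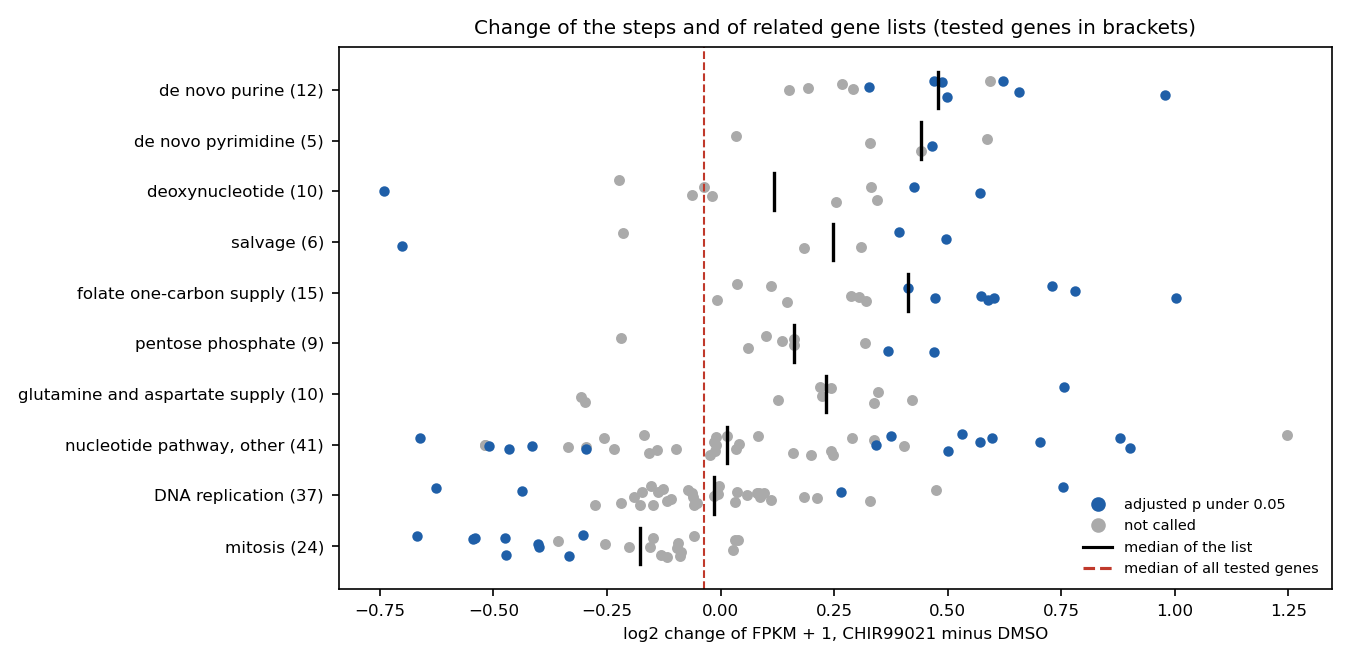
Log2 change (CHIR99021 minus DMSO, on the log2 scale of FPKM + 1) of every tested gene of the 4 steps and of 6 related lists, with called genes in blue, others in grey, a black bar at the median of each list and a dashed line at the median of all tested genes (-0.04). The purine, pyrimidine and folate medians lie at 0.48, 0.44 and 0.41, that of DNA replication at -0.01 and that of mitosis at -0.18.

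Genes of DNA replication and mitosis were set beside these lists, and proliferation itself was not measured. Of 37 replication genes 2 rose (Pole2 and Fen1) and 2 fell (Rfc2 and Pold1), with a median log2 change of -0.01. These are 5.41% and 5.41%, below the 8.13% and 13.3% of all tested genes. Of 24 mitosis genes 9 fell (37.5%) and 0 rose (median -0.18), or 13 fell with the block. With the block 18.4% of all tested genes were called higher and 24.4% lower. Kif23, a kinesin of cytokinesis, had 46.5 ± 3.07 and 28.9 ± 2.41 FPKM (adjusted p = 0.00317). The mitosis count was 3 after upper-quartile scaling or without a limit on level, 4 without the variance trend, 2 without DMSO replicate 1 or 3, and 5, 3 and 1 without CHIR99021 replicates 1, 2 and 3. The replication counts were 5 higher and 5 lower with the block, 4 and 2 under quantile scaling, and 1 to 1 higher and 1 to 2 lower with a library left out.

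Of 13 tested regulators known to act on nucleotide genes, 1 rose (Rps6kb1) and 1 fell (E2f2). Each is 7.69% of the list, below the 8.13% and 13.3% of all tested genes. Myc, a transcription factor that activates many of these genes, had 46.2, 32.6 and 32.6 FPKM in DMSO and 37.9, 43.0 and 33.3 in CHIR99021 (adjusted p = 0.877, or 0.789 with the block). Atf4 had 245 ± 11.1 and 239 ± 20.5 FPKM (adjusted p = 0.829) and E2f1 23.5 ± 4.33 and 22.2 ± 2.07 (0.770). E2f2 fell from 45.5 ± 0.248 to 21.2 ± 2.48 FPKM (adjusted p = 0.000583). Rps6kb1, a kinase downstream of mTORC1 that acts on Cad, rose from 17.1 ± 1.02 to 22.4 ± 2.45 FPKM (adjusted p = 0.0467). The call was lost without a limit on level, without the variance trend and when any 1 DMSO library was left out. It was also lost without CHIR99021 replicate 2 or 3. In each of these settings 0 regulator genes were called higher.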

How the data were processed

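The authors deposited 1 table per library holding gene FPKM with lower and upper confidence limits, per the file headers, from cutadapt 1.12, TopHat2 2.1.1 and Cufflinks 2.2.1 on mm10, per the submitters' processing notes. The sources used here name no annotation, strand setting or multi-read handling. FPKM hold no fragment number, so depth is unknown. Confidence limits lay 12.5% to 15.4% of the FPKM from the median tested gene, and summed FPKM ran from 527290 to 617449. The libraries of a group correlated at 0.970 to 0.980 and none was a duplicate.

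Here log2(FPKM + 1) was tested for the 10096 genes whose mean reached 1 FPKM, with limma 3.58.1 (R 4.3.3, two-sided, variance trend, Benjamini-Hochberg, threshold 0.05), and the members were read from that fit. Spans come from the deposited tables, with starts counted from 1. Deviations from group means correlated at 0.535, 0.490 and 0.517 for libraries of equal replicate number in the titles, and from -0.352 to -0.140 otherwise, hence the block. The series calls the cultures biological triplicates, and the sources used here do not say whether they came from separate mice, so p-values measure the spread between these samples only. Isozyme ratios used FPKM without a pseudocount.

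Members and lists were chosen with earlier results of these data known. Named genes are all members, up to 4 genes per list with the smallest adjusted p under 0.05, Myc, Atf4 and E2f1, and markers. Other genes named in the closing section were chosen after their values were seen. Bc1 and Afmid are named for their spans. Promoters are from RefSeq (GRCm38.p6), and coding sequences from GENCODE M21. Other pseudocounts, level limits, scalings, a block, no variance trend and each library left out were tried.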

Additional observations from a re-analysis of the deposited data

How the results depend on the processing

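All 14 calls among the 33 genes held with pseudocounts of 0.1 and 5, with a limit of 5 FPKM (31 genes tested), under both scalings and with the replicate block. Without a limit on level Dctpp1, Gart, Prps1 and Umps were not called, and without the variance trend Dctpp1, Gmps, Prps1 and Umps were not. With the replicate block the counts of higher and lower genes were 24 and 4 in all, 11 and 0 in purine synthesis, 4 and 0 in pyrimidine synthesis, 5 and 2 in deoxynucleotide supply and 4 and 2 in salvage. Quantile scaling gave 21 higher genes in all, 2 in pyrimidine synthesis, 5 in deoxynucleotide supply and 4 in salvage, and upper-quartile scaling 2 in pyrimidine synthesis. Without a limit on level, 0 pyrimidine and 1 deoxynucleotide gene were higher, and without the variance trend 0 pyrimidine genes were. Leaving out each library gave 3 to 14 higher genes in all and 2 to 2 lower. By step the higher genes ranged over 2 to 8 for purine, 0 to 2 for pyrimidine, 0 to 2 for deoxynucleotide and 1 to 3 for salvage, with lower genes at 0, 0, 1 and 1. The cause of these shifts was not tested, beyond the smaller number of libraries when 1 is left out.

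Genes near 0 changed sign without being called. Rrm2 had log2 changes of 0.037 and 0.022 under upper-quartile and quantile scaling and -0.061 to 0.036 with a library left out (above 0 without DMSO replicate 2 or CHIR99021 replicate 1). Dtymk had 0.019 and 0.0027 under those scalings and -0.10 to 0.020 with a library left out, and Ctps2 -0.033 (without DMSO replicate 2) to 0.081. For the isozyme ratios, a pseudocount of 5 took Rrm2/Rrm2b to -0.20 and Tk1/Tk2 to 0.21, from -0.43 and 0.63, since Rrm2b and Tk2 are near that level. With a library left out, the differences ranged from 0.068 to 0.32 for Prps1/Prps2, 0.21 to 0.58 for Impdh1/Impdh2, 0.17 to 0.67 for Ctps/Ctps2, -0.52 to -0.35 for Rrm2/Rrm2b, 0.54 to 0.77 for Tk1/Tk2 and -0.043 (without DMSO replicate 1) to 0.18 for Nme1/Nme2.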

Other observations

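Genes of dNTP supply outside the 33 were also looked at, and those named were picked after their values were seen. Dguok, the mitochondrial kinase for purine deoxynucleosides, fell from 10.3 ± 2.02 to 6.22 ± 1.69 FPKM (SD, n = 3, limma adjusted p = 0.0477). This call was lost without CHIR99021 replicate 3, where 0 genes of its list were called lower, while that of mitochondrial Tk2 held with each library left out. Of the cytosolic kinases Dck rose and Tk1 was called lower only with the replicate block. Dctd, the deaminase that turns dCMP into dUMP for thymidylate synthesis, rose from 5.91 ± 2.37 to 11.3 ± 1.88 FPKM (adjusted p = 0.0453). The calls of Dguok and Dctd lie near the threshold of 0.05.

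Nucleoside transporters were picked in the same way. The equilibrative carriers Slc29a1 and Slc29a3 rose, with log2 changes of 0.50 and 0.53. The concentrative carrier Slc28a2 fell from 11.2 ± 1.26 to 7.55 ± 0.687 FPKM (limma adjusted p = 0.0233). Slc29a2 had 0.778 ± 0.157 FPKM in DMSO and 1.90 ± 0.356 in CHIR99021. It reached the limit of a mean of 1 FPKM only through CHIR99021, so its call, 1 of the 9 higher in its list, is not read as a result. The purine nucleoside phosphorylase gene Pnp rose from 37.1 ± 1.88 to 47.4 ± 4.94 FPKM (adjusted p = 0.0454), and its neighbour copy Pnp2 from 2.66 ± 0.583 to 4.50 ± 0.178 (0.0320), with reads possibly split between the 2. Without CHIR99021 replicate 3, 0 of the 41 genes of their list were called lower and 3 higher.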
